A study of Rattus norvegicus with 4 samples.

Results

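The genes described here encode the COPII and COPI coats and the translocon, cargo receptors, tethers and fusion proteins that work with them in early secretory transport. Members were matched by gene symbol alone, but the choice was made with earlier results of these data known. The members were rows of the deposited table whose symbol belongs to the Sec13, Sec16, Sec22, Sec23, Sec24, Sec31, Sec61, Sec62 or Sec63 families. Also included were the Cop, Tmed, Trappc, Sar1, Mia, Kdelr, Arf, Gosr, Stx5, Bet1 and Lman families. This gave 66 genes of the 13554 in the table. The procollagen export receptors Mia2 and Mia3 matched 0 rows and were not analysed here. RNA sequencing compared articular cartilage, which covers the bone ends in joints, with xiphoid cartilage, the lower tip of the sternum, in Sprague-Dawley rats 8 to 10 weeks old. There were 2 libraries per tissue, no treatment or engineered allele is labelled, and the total per library ranged from 7351005 to 8434821 counts. The labels name neither the joint nor the animals used. The p-values therefore speak only to the spread among these 4 libraries, partly shared between genes by the test. Part of that spread may be technical.

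Secreted proteins enter the endoplasmic reticulum (ER) through the Sec61 channel and leave it in vesicles shaped by the COPII coat. The COPI coat forms vesicles that return receptors and escaped ER residents from the Golgi, and cargo receptors, tethers and SNARE proteins decide what is packed and where a vesicle fuses. Chondrocytes secrete large amounts of procollagen and proteoglycan, and inherited defects of several coat, tether and receptor genes cause skeletal disease.

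Promoter sequences are shown first because members of several complexes carried the same 8-base word close to their start. RefSeq promoters of rat assembly GRCr8, covering 250 bases before to 50 bases after each gene's start, were matched to 57 members. No promoter was matched for Kdelr2, Sar1a, Sec24c, Sec24d, Sec61a1, Sec61a2, Trappc10, Trappc4 and Trappc9. Motifs of the unfolded protein and cAMP responses were searched on both strands. The ATF6 site, TGACGTGG, a word that the ER stress factor ATF6 and related factors are known to bind, was in 8 of the 57 promoters (14%), against 0.595% of 33469 RefSeq promoters and 0.837% of the 11476 promoters of genes in the table. The cAMP response element, TGACGTCA, shares its first 6 letters with the ATF6 site. It was in 1 member promoter, that of Cope (1.75%), against 1.83% of all promoters and 2.96% of those of genes in the table. The ER stress response element (CCAAT, any 9 bases, CCACG) was in 0 member promoters, 0.0657% of all and 0.148% of those in the table. Its second form (ATTGG, any 1 base, CCACG) was in 0 member promoters, 0.0508% of all and 0.105% of those in the table. Both of these end in CCACG, which the ATF6 site also holds on its other strand. A match is a description of the letters and not a site shown to be bound.

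The 30-base windows around the matches follow, each read 5′ to 3′ on the gene's strand, with the ATF6 site or its reverse complement in capitals, because these 8 genes span a COPII coat subunit, 3 COPI coat subunits, Arf GTPases, a retrieval receptor and a SNARE.
Sec23a (chr6:82440977-82441006, minus strand): ctcctcccattTGACGTGGcagaggcggca
Copa (chr13:87078887-87078916, plus strand): cctggggtagcTGACGTGGagcctttggga
Copb1 (chr1:177872828-177872857, minus strand): cccgcctccttCCACGTCAgccaaggactc
Copb2 (chr8:108040666-108040695, plus strand): tcccggaagttCCACGTCAgtgggtccact
Arf1 (chr10:44514006-44514035, minus strand): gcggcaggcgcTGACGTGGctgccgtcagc
Arf4 (chr16:1903416-1903445, plus strand): cggccgccgtgTGACGTGGcacagccgaac
Kdelr3 (chr7:112959520-112959549, plus strand): gagccgccccgCCACGTCAccgcgcggcca
Stx5, first match (chr1:215066502-215066531, plus strand): tggcgcagtagCCACGTCAcggggttaggg
Stx5, second match (chr1:215066532-215066561, plus strand): gtacgtgtaggTGACGTGGcggctccagtt
Of these 8 genes, 5 (Sec23a, Copa, Copb1, Copb2 and Stx5) were higher in articular cartilage by the test described below, 0 were higher in xiphoid and 3 passed in neither direction. Over all genes tested, these directions held 25% and 24.5% of genes. The median log2 fold change of the 8 genes was 0.51. Of the 5 calls, only those of Sec23a and Copb1 held in all 12 alternatives listed at the end. From here on, articular-high and xiphoid-high name genes whose level was higher in that tissue and passed the test. Of the 48 tested members whose promoter lacked the word, 14 were articular-high and 6 xiphoid-high, with a median of 0.07. Whether the word bears on these differences was not tested.

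Sec23a, the member of this group with the largest change, is shown with the whole 250 bases before its start (chr6:82440905-82441154, minus strand), of which 66.0% are G or C and in which the word CCAAT occurs 0 times on either strand.
Sec23a upstream: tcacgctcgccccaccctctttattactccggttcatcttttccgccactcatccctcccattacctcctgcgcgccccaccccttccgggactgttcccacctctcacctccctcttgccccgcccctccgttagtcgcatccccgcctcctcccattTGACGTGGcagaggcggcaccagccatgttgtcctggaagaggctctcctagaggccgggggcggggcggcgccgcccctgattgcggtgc

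Most transport genes that differed between the cartilages were higher in articular cartilage, and the differences were mostly under 2-fold. Of 65 tested members, 22 were articular-high, 7 xiphoid-high and 36 not called (edgeR quasi-likelihood test, Benjamini-Hochberg adjusted p under 0.05 over all genes tested). The share called, 44.6%, was close to that of all 11202 genes tested, 49.5%. By direction, 33.8% of the members were articular-high against 25% of all genes, and 10.8% were xiphoid-high against 24.5% of all genes. The median log2 fold change was 0.16 for the members and -0.02 for all genes, where a positive value means higher in articular cartilage. Only 6 members (9.23%) were called with a fold above 2, all of them higher in articular cartilage, against 29.2% of all genes. The libraries of the tissues did not overlap for 42 members (64.6%), against 74.9% of all genes. The articular-high contrast with all genes depended on the libraries used. Without xiphoid replicate 1, 13 members were articular-high, a share of 20% that matched the 19.8% of all genes, and without xiphoid replicate 2 the shares were 22.7% and 19.4%. The xiphoid-high share of the members stayed below that of all genes in these settings, at 7.69% against 18.1% and 7.58% against 18.8%. Sec31b, a second outer coat gene, had 3 to 11 counts per library and was not tested.

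**Figure D1:**
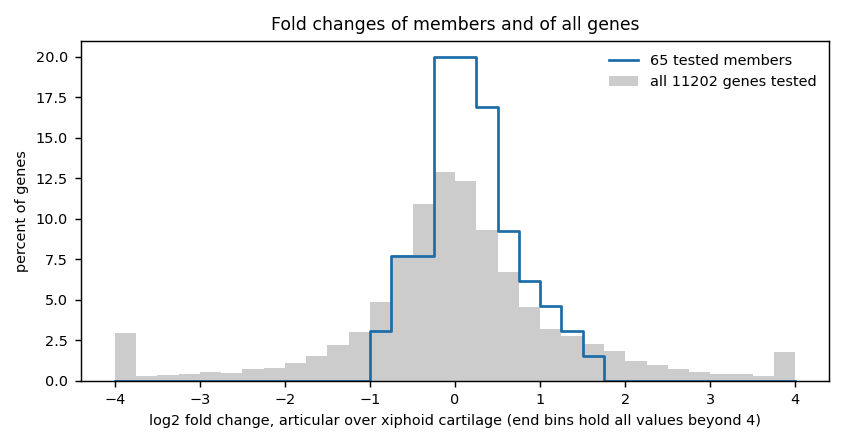
Histogram of the log2 fold change (articular over xiphoid cartilage) as a percent of genes, for all 11202 genes tested (grey bars) and the 65 tested members (line), with values beyond 4 gathered in the end bins. The members lie between -0.94 and 1.69, while the grey bars reach far beyond on both sides.

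Together the members took 0.943% and 0.996% of all counts in articular cartilage, and 0.855% and 0.864% in xiphoid cartilage. The listed matrix cargo genes, such as collagens and proteoglycans, took 18.2% to 19.7% of the counts in articular and 11.3% to 11.8% in xiphoid cartilage. Col2a1, the chain of type II collagen, was at 103400 and 85670 CPM (read counts relative to the TMM-scaled size of the library) in articular and 16350 and 14860 in xiphoid libraries. Eln, which encodes elastin, was at 16.03 and 12.46 CPM in articular and 22470 and 18590 in xiphoid cartilage. Among other cargo genes, Prg4, which encodes the joint lubricant lubricin, was 137-fold higher in articular cartilage (adjusted p = 1.1e-09). Matn1, a cartilage matrix protein, and Ucma, a small secreted cartilage protein, were 8.39-fold and 6.45-fold higher in xiphoid tissue (adjusted p = 1.8e-08 and 5.63e-08). The cargo totals of the tissues thus stood further apart than the totals of the transport genes, but this rested on Col2a1. Col2a1 alone took 10.3% and 8.57% of counts in articular and 1.65% and 1.48% in xiphoid libraries. That gap was at least as wide as the gap between the cargo totals.

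Markers of other cell types moved with tissue in the same libraries, and their part in the results for single genes was not tested. In xiphoid cartilage, 11 of 12 skeletal muscle markers (0.913% to 0.919% of counts against 0.0238% to 0.0305%), 7 of 7 adipocyte markers (0.232% to 0.298% against 0.00755% to 0.00898%) and 5 of 7 fibroblast and perichondrium markers (1.32% to 1.46% against 0.0488% to 0.0507%) were higher. Most of the last share was Gsn, without which it was 0.0537% to 0.0628% against 0.015% to 0.0157%, and Pdgfra and Thy1 did not pass. Tnni2, the muscle marker that did not pass, made up most of the articular muscle share. It was at 268.6 and 210.5 CPM in articular and 253.2 and 233 in xiphoid libraries. In articular cartilage, 7 of 7 erythroid markers (0.679% to 0.683% against 0.0571% to 0.0612%), 5 of 5 osteoclast markers (0.191% to 0.201% against 0.0141% to 0.0152%) and 6 of 7 osteoblast markers (0.897% to 0.968% against 0.603% to 0.647%) were higher. Col1a1, the osteoblast marker that did not pass, made up nearly all of the xiphoid share, and without it the list took 0.299% to 0.419% in articular and 0.00226% to 0.00243% in xiphoid cartilage. Of the neutrophil markers, 5 of 6 tested were higher in articular cartilage (0.0179% to 0.0183% against 0.00107% to 0.00127%, most of the latter Mpo). So were 6 of 7 of the B and plasma cell lineage (0.00506% to 0.00516% against 0.00124% to 0.00146%, nearly all of the latter Ebf1). Macrophage markers (2 of 7 higher in articular cartilage, 0.0133% to 0.0135% against 0.00842% to 0.00892%) and endothelial markers (1 of 7 higher in articular and 2 in xiphoid cartilage, 0.0134% against 0.0156% to 0.0161%) stood closer. Listed at 0 in both articular libraries were Myh2 and Lep, and in both xiphoid libraries Camp, Ngp, Elane, Cd79b, Igll1, Vpreb1, Phex, Atp6v0d2 and Calcr. The chondrocyte markers Col2a1, Acan and Sox9 were present in both tissues. The list of 8 took 10.5% to 12.3% of counts in articular and 2.69% to 2.90% in xiphoid cartilage. Most of this was Col2a1, without which the list took 1.98% in articular and 1.22% to 1.25% in xiphoid cartilage. Of the 8, 5 were articular-high, Comp was xiphoid-high, and Sox9 and Matn3 did not pass. In such tissue samples, fewer cells of a type and less RNA per cell cannot be told apart.

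**Figure D2:**
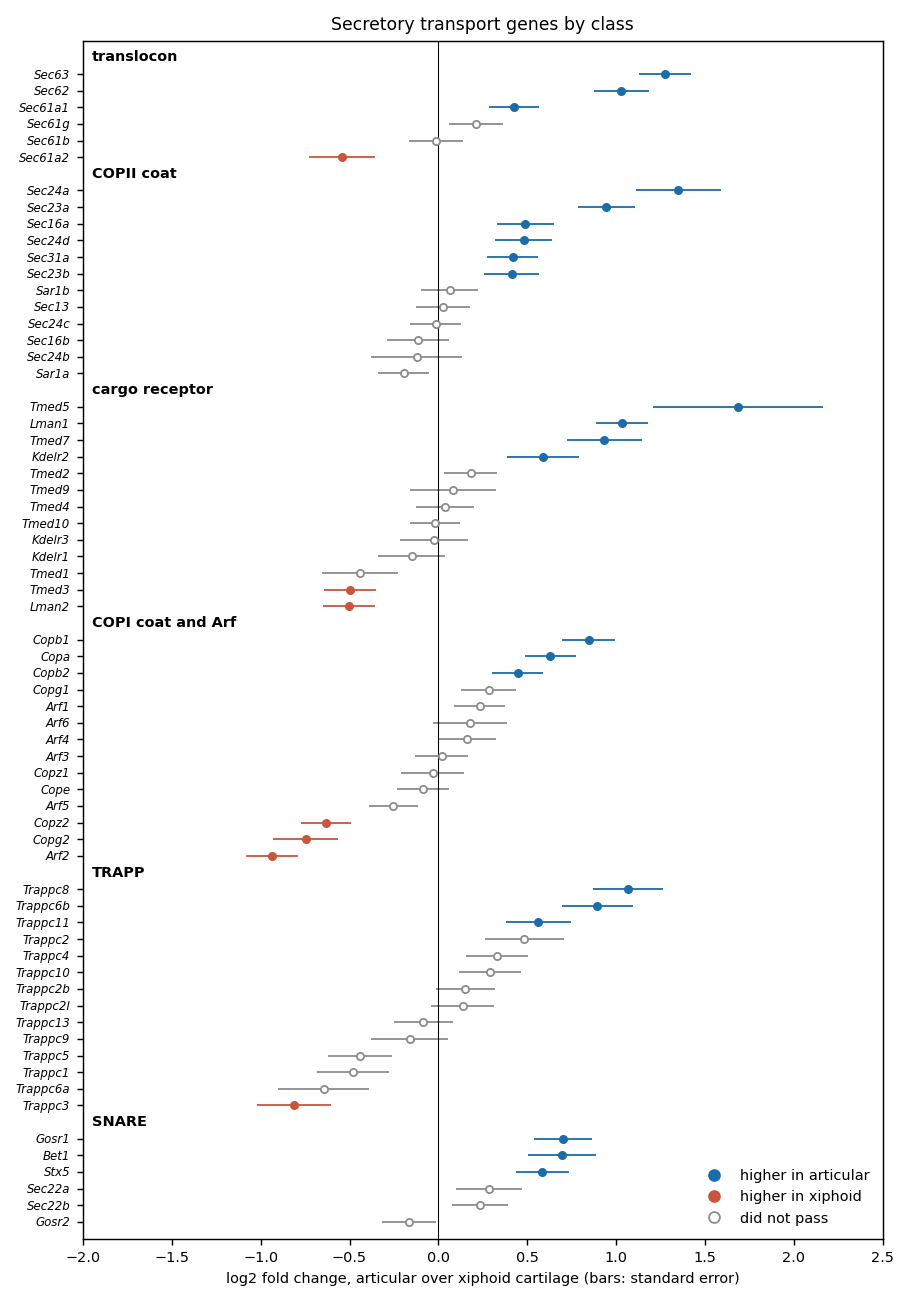
Log2 fold change (x axis, articular over xiphoid cartilage) of each of the 65 tested members (rows, grouped by class), with bars for the standard error and filled points for genes past the threshold. The 22 genes higher in articular cartilage lie between 0.41 and 1.69 and the 7 higher in xiphoid cartilage between -0.94 and -0.50.

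At the entry to the ER, the accessory subunits of the translocon had larger fold changes than the channel subunits. Sec63 (Entrez gene 309858), a membrane protein that recruits the chaperone BiP to the channel, was at 169 and 170.2 CPM in articular and 72.9 and 67.1 in xiphoid libraries. The articular pair nearly coincided and lay far above the xiphoid pair, a 2.42-fold difference (log2 fold change 1.28, SE 0.15, adjusted p = 1.93e-05, edgeR). Sec62, which works with Sec63 on short or slowly targeted precursors, was at 187.1 and 223.6 against 94.4 and 106.9 CPM (2.04-fold, adjusted p = 1.69e-04). Both genes held their call in all 12 alternatives.

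Among the channel subunits, the pore-forming Sec61a1 was at 214.1 and 203.4 CPM in articular and 150.8 and 160.7 in xiphoid tissue (1.34-fold, adjusted p = 0.0255). Its second copy Sec61a2 went the other way, at 19.7 in both articular libraries against 27.8 and 29.6 CPM (1.46-fold higher in xiphoid, adjusted p = 0.0285). Without xiphoid replicates 1 and 2 the adjusted p was 0.23 and 0.128 for Sec61a1 and 0.115 and 0.196 for Sec61a2, which also missed the threshold with DESeq2 (0.103). Sec61a2 lies over Nudt5 in the RefSeq annotation, and reads of the overlap cannot be told apart. The small subunits Sec61g (log2 fold change 0.21, SE 0.15) and Sec61b (-0.01, SE 0.15) did not pass.

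Neighbouring steps of ER entry were taken from a list of genes outside the chosen families, covering the signal recognition particle, signal peptidase, the translocon-associated proteins and the oligosaccharyltransferase. Of 27 tested, 10 were articular-high, 1 xiphoid-high and 16 not called, with a median log2 fold change of 0.30. The shares by direction were 37% and 3.7%, against 25% and 24.5% of all genes. The signal recognition particle subunits Srp54a (83.7 and 92.2 against 25.8 and 29.2 CPM, adjusted p = 4.56e-06), Srp68 (adjusted p = 9.25e-05) and Srp72 (adjusted p = 1.6e-04) were 3.21-fold, 2.02-fold and 2.05-fold higher in articular cartilage. Another of its subunits, Srp14, was the xiphoid-high gene (80.0 and 73.6 against 113.2 and 94.4 CPM, adjusted p = 0.0367). Spcs3, a signal peptidase subunit, was 2.98-fold higher in articular cartilage (adjusted p = 1.12e-04), while Spcs1 (-0.12) and Sec11a (-0.10), a catalytic subunit, did not pass. Subunits of one particle thus stood on different sides of the threshold, as they did in the Sec61 channel.

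In the COPII coat, 6 of 12 tested genes were articular-high, 0 xiphoid-high and 6 not called. Of all genes tested, 25% were articular-high and 24.5% xiphoid-high. Sec24a (Entrez gene 287275), a cargo-binding subunit of the inner coat, was at 31.7 and 51.1 CPM in articular and 14.7 and 17.8 in xiphoid libraries. Its articular libraries were far apart, yet the lower one was above both xiphoid libraries (2.55-fold, log2 fold change 1.35, SE 0.24, adjusted p = 5.67e-04). Its estimated counts were not whole numbers, and in this group of genes that was so only for Sec24a and Trappc8.

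Sec23a (Entrez gene 58817) encodes the inner coat subunit that speeds GTP hydrolysis by Sar1, and its loss of function causes craniolenticulosutural dysplasia. It was at 197.3 and 250.2 CPM in articular against 110.7 and 121.9 in xiphoid tissue (1.92-fold, log2 fold change 0.94, SE 0.16, adjusted p = 4.04e-04). It overlaps Gemin2 in the RefSeq annotation. The calls of Sec24a and Sec23a held in all 12 alternatives. The promoter of Sec23a carries the ATF6 site shown above.

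The other called coat genes differed by less. Sec16a, a scaffold of ER exit sites, was at 109.1 and 114.3 against 88.2 and 70.8 CPM (1.40-fold, adjusted p = 0.0229). Sec24d, whose mutation underlies a syndromic form of osteogenesis imperfecta, was at 198.5 and 244.5 against 144.3 and 173.3 CPM (1.40-fold, adjusted p = 0.0263). In both genes every articular library lay above the xiphoid ones. Sec31a, of the outer cage, was at 190.7 and 189.3 against 136.8 and 147.8 CPM (1.34-fold, adjusted p = 0.0276). Sec23b, the paralog of Sec23a, was at 84.3 and 98.1 against 66.0 and 71.1 CPM (1.33-fold, adjusted p = 0.0432). The libraries did not overlap in these genes either, but all 4 calls were close to the threshold. The adjusted p rose to 0.289 without xiphoid replicate 2 for Sec16a, to 0.268 without xiphoid replicate 1 and 0.108 without articular replicate 2 for Sec24d, and to 0.254 and 0.125 without xiphoid replicates 1 and 2 for Sec31a. For Sec23b it was 0.275, 0.14 and 0.16 without xiphoid replicate 1, xiphoid replicate 2 and articular replicate 2, and 0.0952 with DESeq2.

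The remaining COPII genes did not pass. Sar1a, the GTPase that starts coat assembly, was at 415 and 415.2 CPM in articular and 490.2 and 460.9 in xiphoid tissue (log2 fold change -0.20, SE 0.14, adjusted p = 0.272). Its paralog Sar1b (0.06, SE 0.16), Sec13 of the outer cage (0.03, SE 0.15), Sec24c (-0.02, SE 0.14) and Sec16b (-0.12, SE 0.17) lay near 0, with overlapping libraries. Sec24b was at 22.01 and 39.69 against 29.6 and 37.5 CPM (-0.12, SE 0.25). Without articular replicate 2 it was called higher in xiphoid tissue (-0.60, adjusted p = 0.0145), and without articular replicate 1 its value was 0.24. Preb, outside the chosen families, activates Sar1 and was at 44.7 and 36.7 against 57.3 and 53.2 CPM (1.35-fold higher in xiphoid, adjusted p = 0.0457). Its adjusted p was 0.272 and 0.137 without xiphoid replicates 1 and 2, 0.181 without articular replicate 2, and 0.12 with DESeq2.

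**Figure D3:**
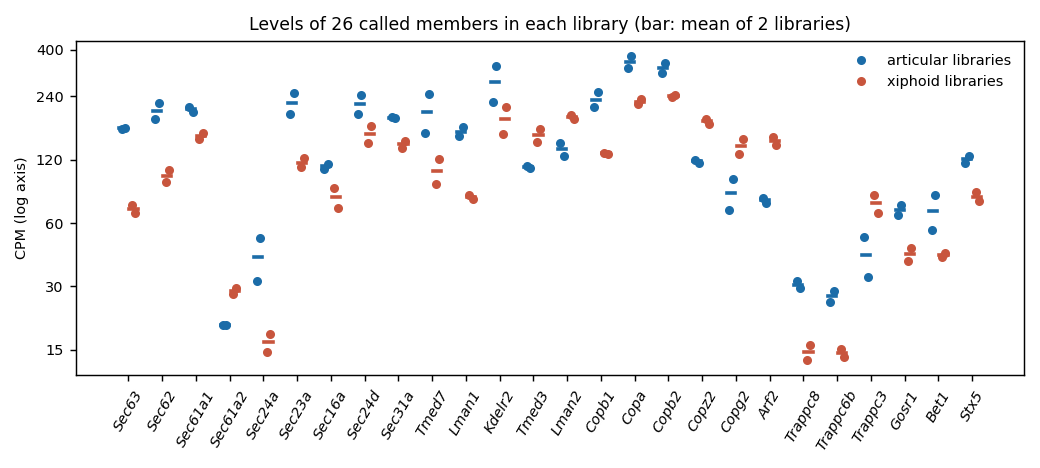
CPM on a log axis of 26 called members in the 2 articular and 2 xiphoid libraries, with a bar at each mean; heights are not comparable between genes, since CPM are not divided by transcript length. The tissues do not overlap in any gene shown, for example Sec63 at 169 and 170.2 against 72.9 and 67.1, and the libraries of one tissue are furthest apart in genes such as Sec24a, Tmed7 and Trappc3.

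Cargo receptors were split, with 4 of 13 tested articular-high, 2 xiphoid-high and 7 not called. These shares, 30.8% and 15.4%, compare with 25% and 24.5% of all genes tested. Lman1 (Entrez gene 116666), the mannose-binding receptor that carries coagulation factors V and VIII out of the ER, was at 155.3 and 171.3 CPM in articular and 81.5 and 78.2 in xiphoid tissue (2.04-fold, log2 fold change 1.03, SE 0.15, adjusted p = 1.1e-04). Lman2, a related lectin of the early secretory pathway, was at 143.7 and 125.7 against 195 and 187.4 CPM (1.42-fold higher in xiphoid, adjusted p = 0.0124). The 2 lectins therefore differed between the tissues in opposite directions. The adjusted p of Lman2 was 0.125 and 0.0845 without xiphoid replicates 1 and 2, while Lman1 held its call in all 12 alternatives. Mcfd2, the partner of Lman1 in factor export, was at 97.7 and 99.0 against 105.8 and 123.4 CPM and did not pass (-0.22, SE 0.15).

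The Tmed genes encode p24 proteins, small membrane receptors that cycle between ER and Golgi in mixed complexes. Of 8 tested, Tmed7 and Tmed5 were articular-high, Tmed3 was xiphoid-high and 5 were not called. By direction this was 25% and 12.5%, against 25% and 24.5% of all genes tested. Tmed7 was at 160.7 and 246.1 against 91.7 and 121.4 CPM (1.91-fold, log2 fold change 0.93, SE 0.21, adjusted p = 0.0032). Tmed3 was at 112.1 and 110.1 against 145.5 and 168.2 CPM (1.41-fold higher in xiphoid, adjusted p = 0.0146, and 0.235 without xiphoid replicate 2). Tmed5 was low, at 33 and 63 counts in the articular and 11 and 18 in the xiphoid libraries (log2 fold change 1.69, SE 0.48, adjusted p = 0.0113), and lost its call without articular replicate 2 (adjusted p = 0.131). Tmed2 (0.18, SE 0.15), Tmed4 (0.04, SE 0.16) and Tmed10 (-0.02, SE 0.14) did not pass. Tmed9 was at 563.4 and 339.7 against 499.1 and 354.5 CPM, so that its libraries differed more within than between the tissues (0.08, SE 0.24). Tmed9 was called articular-high without articular replicate 2 (0.40, adjusted p = 0.0465), and Tmed1 xiphoid-high without articular replicate 1 (-0.78, adjusted p = 2.98e-04, against -0.44 and 0.107 with all libraries).

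KDEL receptors return escaped ER chaperones from the Golgi. Kdelr2, which is mutated in a form of osteogenesis imperfecta, was at 226.1 and 335.9 CPM in articular and 159.1 and 214.4 in xiphoid tissue (1.50-fold, log2 fold change 0.59, SE 0.20, adjusted p = 0.031). This call was lost without articular replicate 2 (adjusted p = 0.172) and without xiphoid replicate 1 (0.216). Kdelr1 was at 160.8 and 200.8 against 163.8 and 237.8 CPM (-0.15, SE 0.19) and Kdelr3 at 225.9 and 319.2 against 236.7 and 317.3 CPM (-0.02, SE 0.19), and neither passed. In all 3 genes the library labelled 2 was higher than the library labelled 1 of the same tissue.

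Within the COPI coat, a complex of several kinds of subunit, the called genes did not all go the same way. Of 8 tested coat genes, 3 were articular-high, 2 xiphoid-high and 3 not called. These directions held 37.5% and 25% of the coat genes, against 25% and 24.5% of all genes. Copb1 (Entrez gene 114023), the beta subunit, was at 212.8 and 251.2 CPM in articular and 129.8 and 128.5 in xiphoid tissue (1.80-fold, log2 fold change 0.84, SE 0.15, adjusted p = 5.26e-04). Copa, the alpha subunit, was at 328.7 and 373.9 against 220.6 and 233.6 CPM (1.55-fold, adjusted p = 0.00334), and Copb2, the beta prime subunit, at 309.4 and 347.3 against 239.4 and 243 CPM (1.36-fold, adjusted p = 0.0212). The delta subunit Arcn1, whose symbol lies outside the chosen families, was at 459.6 and 574.9 against 251.8 and 274.9 CPM (1.96-fold, adjusted p = 2.92e-04). The alpha, beta, beta prime and delta genes were thus all called in the same direction. Without xiphoid replicate 1 the adjusted p was 0.0521 for Copa and 0.164 for Copb2, which also lost its call without xiphoid replicate 2 (0.144) and articular replicate 2 (0.0708).

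The gamma and zeta subunits each have a pair of genes, and in both pairs the second gene was higher in xiphoid cartilage. Copg2 (Entrez gene 301742) was at 69.0 and 97.1 CPM in articular and 127.5 and 151.4 in xiphoid tissue (log2 fold change -0.75, SE 0.18, adjusted p = 0.00486). Copz2 was at 120 and 115.9 against 187.1 and 178.1 CPM (-0.63, SE 0.14, adjusted p = 0.0029). The first genes did not pass, with Copg1 at 185.2 and 222.6 against 158.3 and 177.1 CPM (0.28, SE 0.15, adjusted p = 0.146) and Copz1 at 179.7 and 215.5 against 169 and 235.6 CPM (-0.03, SE 0.18). Without articular replicate 1, Copg1 was called higher in articular cartilage (0.41, adjusted p = 0.0288). Cope, the epsilon subunit, did not pass (-0.09, SE 0.15).

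Arf GTPases, which recruit the COPI coat when bound to GTP, differed in 1 of 6 genes. This was 16.7% of them, against 49.5% of all genes tested that were called in either direction. Arf2 (Entrez gene 79119) was at 78.8 and 75.1 CPM in articular and 153.9 and 140.6 in xiphoid tissue (1.91-fold higher in xiphoid, log2 fold change -0.94, SE 0.15, adjusted p = 2.37e-04), the largest change toward xiphoid cartilage among the members tested. Copb1, Copg2, Copz2 and Arf2 held their calls in all 12 alternatives. Arf1 was at 590.7 and 538.3 against 478.8 and 481.5 CPM (0.23, SE 0.14, adjusted p = 0.199) and Arf5 at 207 and 203.3 against 240.1 and 249.5 (-0.26, SE 0.14, adjusted p = 0.146). Arf3, Arf4 and Arf6 lay between 0.02 and 0.18, and Arf6 was called articular-high without articular replicate 2 (0.44, adjusted p = 0.0307). The Arf proteins are closely related, but the estimated counts of their genes were whole numbers and show no split of reads. Whether reads were counted to the wrong Arf gene was not tested.

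TRAPP complexes tether vesicles at the Golgi, and most of their genes did not pass. Of 14 tested, 3 were articular-high and 1 was xiphoid-high (21.4% and 7.14%, against 25% and 24.5% of all genes). Trappc8 (Entrez gene 291750), a subunit of the larger TRAPP III complex, was at 31.8 and 29.4 CPM in articular and 13.4 and 15.9 in xiphoid tissue (2.09-fold, log2 fold change 1.07, SE 0.20, adjusted p = 7.55e-04). Trappc6b, of the shared core, was at 25.4 and 28.6 against 15.2 and 13.8 CPM (1.86-fold, adjusted p = 0.00263). Trappc11, also of TRAPP III, was 1.48-fold higher (34.1 and 31.5 against 23.3 and 21.1 CPM, adjusted p = 0.0221), with an adjusted p of 0.0753 and 0.163 without xiphoid replicates 1 and 2 and of 0.0752 with DESeq2.

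Trappc3, a core subunit, was higher in xiphoid cartilage, at 51.8 and 33.3 CPM in articular against 82.1 and 67.3 (1.75-fold, log2 fold change -0.81, SE 0.21, adjusted p = 0.00635). Trappc8, Trappc6b and Trappc3 held their calls in all 12 alternatives. The small core subunits Trappc1, Trappc5 and Trappc6a also had both articular libraries below both xiphoid libraries, with log2 fold changes of -0.48, -0.44 and -0.65, and did not pass (adjusted p = 0.0671, 0.0604 and 0.0539). Trappc6a was called xiphoid-high without articular replicate 1 (adjusted p = 2.59e-04), without xiphoid replicate 2 (0.0158) and with no filter on low counts (0.0354). Trappc5 was so called without articular replicate 1 (adjusted p = 0.0317) and Trappc1 without articular replicate 2 (0.0134). Trappc2, whose loss causes spondyloepiphyseal dysplasia tarda, was at 15.1 and 17.1 against 12.1 and 10.8 CPM and did not pass (0.48, SE 0.22, adjusted p = 0.0915). Its close copy Trappc2b was at 46.4 and 51.3 against 40.7 and 47.3 CPM (0.15, SE 0.16). The estimated counts of both copies were whole numbers, and whether reads were counted to the wrong copy was not tested. The other TRAPP genes did not pass. Trappc4 (0.33, SE 0.17) and Trappc10 (0.29, SE 0.17) had articular libraries above the xiphoid ones, and Trappc2l (0.14), Trappc13 (-0.09) and Trappc9 (-0.16) overlapped. Several members lie over another gene of the table in the RefSeq annotation, among them Trappc11 over Rwdd4, Trappc1 over Cntrob, Trappc2 over Rab9a and Ofd1, Sec23b over Rbbp9, Sec16b over Cryzl2, Arf3 over Tuba1c and Tmed1 over Dnm2.

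Of the SNARE proteins that fuse ER-derived vesicles with the Golgi, 3 of 6 tested were articular-high and 3 not called. Articular-high genes were 50% of this small class, against 25% of all genes tested. Gosr1 was at 65.8 and 72.8 CPM in articular and 39.5 and 45.9 in xiphoid tissue (1.62-fold, log2 fold change 0.70, SE 0.16, adjusted p = 0.00343). Bet1 was at 55.5 and 81.7 against 41.3 and 43.4 CPM (1.62-fold, adjusted p = 0.00991). Stx5, the syntaxin of these fusion complexes, was at 116.3 and 124.5 against 84.3 and 76.2 CPM (1.50-fold, adjusted p = 0.00634), and its promoter holds the ATF6 site on both strands. The adjusted p rose to 0.0578 without xiphoid replicate 1 for Gosr1, to 0.0716 without articular replicate 2 for Bet1 and to 0.0997 without xiphoid replicate 2 for Stx5. Sec22b (229.9 and 192.5 against 196.7 and 162.1 CPM), Sec22a (25.4 and 28.3 against 22.1 and 21.9) and Gosr2 (75.8 and 70.0 against 86.7 and 76.7) did not pass.

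Other genes of ER-to-Golgi transport, from a list of tethers, Rab and Arf regulators, SNAREs and Golgi matrix proteins outside the chosen families, gave similar counts. Of 60 tested, 20 were articular-high, 5 xiphoid-high and 35 not called, with a median log2 fold change of 0.19. Trip11, a Golgi tether whose loss causes achondrogenesis, was at 67.5 and 75.1 CPM in articular against 19.5 and 21.2 in xiphoid tissue (3.50-fold, adjusted p = 3.07e-06). Arfgef1, an activator of Arf proteins, was 3.01-fold (adjusted p = 1.22e-05), Uso1, the tether p115, 2.25-fold (adjusted p = 1.1e-04) and Golgb1, the giant Golgi tether giantin, 2.11-fold higher in articular cartilage (adjusted p = 2.23e-04). The 5 xiphoid-high genes were Bcap31, Cnih1, Lman2l, Lman1l and Preb, named after their values were seen. These shares, 33.3% and 8.33%, compare with 25% and 24.5% of all genes tested. They stood close to those of the members, 33.8% and 10.8%.

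Regulators of coat genes and of the ER stress response were mixed. Of 14 tested, 6 were articular-high, 2 xiphoid-high and 6 not called. By direction this was 42.9% and 14.3%, beside 25% and 24.5% of all genes. Atf6 was at 40.8 and 47.5 CPM in articular and 12.8 and 15.3 in xiphoid tissue (3.14-fold, adjusted p = 2.37e-05), and Ern1, the ER stress sensor IRE1, was 3.25-fold higher (adjusted p = 3.35e-06). Atf4, the factor induced when translation is restrained, was at 1265 and 1252 against 257.3 and 276.9 CPM (4.71-fold, adjusted p = 1.76e-07). The xiphoid-high genes were Atf6b, a relative of Atf6 (adjusted p = 0.00247), and Mbtps1, the protease that makes the first of the cuts that free ATF6 in the Golgi (194 and 195.4 against 372.5 and 337.1 CPM, adjusted p = 3.17e-04). Mbtps2, which makes the following cut within the membrane, was articular-high (11.1 and 11.2 against 4.12 and 6.30 CPM, 2.15-fold, adjusted p = 0.00793).

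Creb3l2, a factor known to switch on Sec23a in chondrocytes, did not pass, at 187.9 and 185.7 CPM in articular against 205.5 and 193.3 in xiphoid tissue (-0.09, SE 0.14). Its relative Creb3l1 was at 72.9 and 75.9 against 39.6 and 46.6 CPM (1.73-fold higher in articular cartilage, adjusted p = 0.00143). Xbp1, which IRE1 activates by splicing, did not pass (0.14, SE 0.17). Cul3, the ubiquitin ligase scaffold that enlarges COPII coats together with Klhl12, was 2.65-fold higher in articular cartilage (adjusted p = 5.35e-05), whereas Klhl12 did not pass (-0.17).

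The balance between paralogs, read as the ratio of their counts within each library, did not overlap between the tissues for most of the 15 pairs. For comparison, the levels of 74.9% of all genes tested did not overlap either. The ratios use the same counts as the calls above, and some genes recur among the pairs. The length of the transcripts cancels when such a ratio is compared between tissues, and with 2 libraries per tissue the ratios are given without a test. The ratio of Sec23a to Sec23b was 2.34 and 2.55 in articular and 1.68 and 1.71 in xiphoid cartilage. The ratio of Sec24a to Sec24b, both cargo-binding subunits, was 1.44 and 1.29 in articular and 0.496 and 0.474 in xiphoid cartilage. Both of these pairs thus leaned further toward the first gene in articular cartilage. So did Sec24d to Sec24c (1.76 and 2.18 against 1.25 and 1.55), Sec24a to Sec24c, and Sec16a to Sec16b (3.28 and 3.52 against 2.67 and 1.85). Among COPII pairs, Sar1a to Sar1b, given below, went the other way by a small margin.

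In the COPI coat, the ratio of Copg1 to Copg2 was 2.68 and 2.29 in articular and 1.24 and 1.17 in xiphoid libraries. Copg2 made up 27.2% and 30.4% of the gamma subunit counts in articular and 44.6% and 46.1% in xiphoid cartilage. The ratio of Copz1 to Copz2 was 1.50 and 1.86 against 0.903 and 1.32, and that of Arf1 to Arf2 was 7.49 and 7.16 against 3.11 and 3.43. Each of the COPI pairs leaned further toward the second gene in xiphoid cartilage. Among receptors, Lman1 to Lman2 was 1.08 and 1.36 against 0.418 and 0.417, and Kdelr2 to Kdelr1 was 1.41 and 1.67 against 0.971 and 0.901. In the KDEL receptor family the ratios within a tissue lay close together although the levels of all 3 genes differed between its libraries. The ratio of Sec22b to Sec22a overlapped between the tissues (9.07 and 6.81 against 8.90 and 7.39), and that of Sar1a to Sar1b differed little (3.54 and 2.75 against 3.86 and 3.55).

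**Figure D4:**
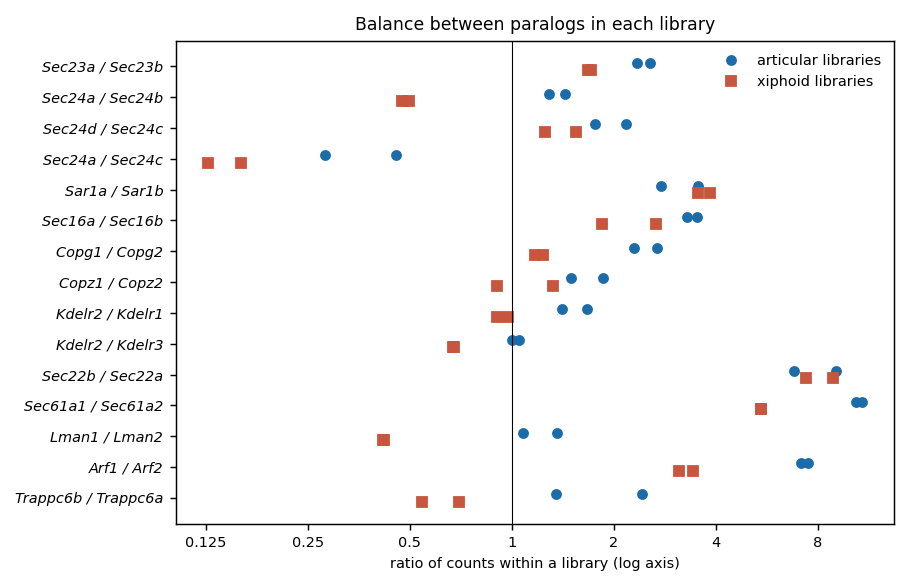
Ratio of the counts of paired genes within each library, on a log axis, for the 2 articular (circles) and 2 xiphoid libraries (squares), with a line at equal counts. Lman1 to Lman2 lies right of the line in articular (1.08 and 1.36) and left of it in xiphoid tissue (0.418 and 0.417), while the circles and squares of Sec22b to Sec22a overlap.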

How the data were processed

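RNA of 2 articular and 2 xiphoid cartilage libraries was measured. The authors deposited values headed as read counts for each gene. Some of these deposited values are not whole and the library totals differ, so the deposited unit was taken to be estimated counts without normalization. HISAT2 2.0.4, StringTie 1.2.1, Bowtie2 2.2.6, RSEM 1.2.12 and build rn6 are named per the submitters' processing notes, with no role or order. Whether counting used strand is not stated, so where genes overlap their reads cannot be separated. In assembly GRCr8, 10 members overlap another gene of the table.

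Counts were rounded, filtered with filterByExpr by tissue (11202 of 13554 genes tested), scaled by TMM and tested with the edgeR 4.0.16 quasi-likelihood test (robust, tissue as the only term, 2 residual degrees of freedom) in R 4.3.3, with Benjamini-Hochberg adjustment at 0.05. Tests are 2-sided. The SE is the log2 fold change divided by the square root of F. The script was tested on simulated data. CPM are not divided by transcript length, so levels are compared within a gene.

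Members and lists were chosen with earlier results of these data known. Genes were named by rule: per class, up to 3 called members in each direction with the largest change and at least 10 CPM, all coat paralogs, members with known skeletal roles, per list the 4 lowest adjusted p, and always Arcn1, Preb, Creb3l1, Creb3l2, Col2a1 and Eln. Other genes were named after their values were seen. The promoter motifs, taken from RefSeq sequences of GRCr8, and the paralog ratios were described without a test. The 12 alternatives were RLE and upper-quartile factors, library sizes alone, no filter, DESeq2 1.42.0, a floor of 5 on the mean CPM, a replicate block, dropping 73 cell type markers, and omitting each library in turn.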

Additional observations from a re-analysis of the deposited data

How the results depend on the processing

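Of the 22 articular-high and 7 xiphoid-high members, 9 and 4 held their call in all 12 alternatives, and 0 changed direction in any of them. Leaving out 1 library gave 13 to 23 articular-high members (2235 to 2952 of all genes), 5 to 10 xiphoid-high members (2070 to 3041 of all genes) and a median log2 fold change of 0.13 to 0.211. At the low end the members' articular-high share, 20%, did not stand above that of all genes, 19.8%. Of the members that did not pass, 17 changed sign in at least 1 alternative. Upper-quartile factors, which moved the median of all genes by 0.047, turned 5 values near 0, among them Copz1 (0.009), Kdelr3 (0.018) and Sec24c (0.031), and a mean CPM of 5 or more turned 3, among them Sec24c (0.006). Leaving out 1 library turned 4 to 10 values, among them Copz1 (-0.246 to 0.236), Kdelr1 (-0.388 to 0.152), Kdelr3 (-0.293 to 0.213), Sar1b (-0.131 to 0.237), Sec16b (-0.208 to 0.005), Sec24b (-0.605 to 0.245) and Sec24c (-0.027 to 0.018). A tissue left with 1 library was assumed to vary like the other.

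Libraries with the same number deviated together (correlation 0.304 over the genes tested and 0.751 over the 65 tested members), and the labels do not say that a number marks a shared animal or batch. With the number as a replicate block, all 29 calls remained and the count rose to 27 articular-high members (41.5%, against 29.9% of all genes) and 12 xiphoid-high members (18.5%, against 31.1%). The added calls were Sec61g, Copg1, Arf1, Trappc2 and Sec22b, articular-high, and Tmed1, Arf5, Trappc1, Trappc5 and Trappc6a, xiphoid-high, with adjusted p from 0.00142 (Trappc6a) to 0.0451 (Trappc2).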
